A study of Mus musculus with 2 samples.

Results

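Enzymes that write, read and erase DNA methylation and histone marks, together with chromatin remodellers, were compared between regulatory and other CD4+ T cells of the mouse. The set was a fixed list of 45 gene symbols, and its members were all probe sets annotated to exactly 1 listed symbol. There were 114 such probe sets for 44 of the 45 genes, out of 45101 probe sets on the array. No probe set of its own was found for Suv39h1, an H3K9 methyltransferase, which was not analysed here. A further probe set, annotated to both Kdm6b and 1700064E03Rik, was not used.

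The cells came from DEREG mice, a transgenic strain in which the Foxp3 promoter drives green fluorescent protein (GFP), so that GFP reports promoter activity of the transgene rather than Foxp3 protein. The group labelled CD4+GFP+FoxP3+ and the group labelled CD4+GFPnegFoxP3neg were both taken from CD4+ T cells, first enriched by negative selection and then sorted on GFP. Each group was measured on 1 Affymetrix Mouse Genome array, as biotin-labelled cRNA made from 6 µg of total RNA. Both groups carry the transgene. The sources used here name no organ, age or treatment, nor how many mice were used.

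Foxp3, the transcription factor of regulatory T cells, had a signal of 504 on the GFP-positive array, against 173 on the GFP-negative array, a 2.91-fold difference in the direction of the labels. All 13 measured regulatory T cell markers were higher on the GFP-positive array, with a median log2 difference of 0.94. The GFP-negative array also held clear signals of such markers. There Foxp3 was above the signal floor of 61.8 explained below, and Ikzf2 had 2250 and Ctla4 1244. Whether regulatory T cells lay among the GFP-negative cells was not tested. The median signal of tissue-restricted genes, which should be silent in T cells, was 16.2 on the GFP-positive array, against 8.5 on the GFP-negative array. The 3′ to 5′ signal ratio of the Actb control was 5.30 on the GFP-positive array, against 3.57 on the GFP-negative array. That of the Gapdh control was 9.27 on the GFP-positive array, against 6.24 on the GFP-negative array. The part of these unequal ratios in the differences below, and in disagreement between probe sets, was not tested. With 1 array per group there is no replicate error, no test was run, and every difference below is a difference between these 2 arrays. The number of arrays limits the precision. In bulk cells, fewer cells of a type and less RNA per cell cannot be told apart.

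DNA methylation at CpG dinucleotides is laid down by Dnmt3a and Dnmt3b, copied at replication by Dnmt1 with its recruiter Uhrf1, and oxidised toward removal by the Tet enzymes. Polycomb complexes silence genes by methylating H3K27 and ubiquitinating H2A, while acetyltransferases, deacetylases, demethylases and remodellers set how open chromatin is. In regulatory T cells, demethylation of a conserved intronic enhancer of Foxp3 keeps the gene stably on. Several of these enzymes also act there directly: Ep300 and Kat5 acetylate the Foxp3 protein, and Ezh2 is recruited to Foxp3-bound genes after activation.

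Short promoter stretches are shown first, for members with either of 2 DNA motifs. E2F motifs are known from genes of the cell cycle, and the forkhead motif is the type of site bound by Foxp3 and its relatives. The windows ran from 250 bases before to 50 bases after each start site in RefSeq sequences (build GRCm38.p6), which held 59 windows for 39 of the 45 genes. The E2F letters searched were TTTCCCGC, TTTCGCGC, TTTGCCGC and TTTGGCGC on both strands, and a window counted once however many matches it held. Such letters occurred in 7 of the 59 windows (11.9%), compared with 2.26% of all 32851 windows and 4.25% of the 9260 windows of genes measured here. The forkhead letters TGTTTAC, on both strands, occurred in 3 of the 59 windows (5.08%), compared with 3.65% of all windows and 2.79% of windows of measured genes. The windows of the set held a median of 28 CpG dinucleotides, against 7 in all windows and 21 in windows of measured genes. These are descriptions of letters and not of binding. The E2F match of Suv39h1, which has no signal here, is not shown. The stretches below are 30 bases long, written 5′ to 3′ on the gene's strand, with the match in capitals.
Ezh2 E2F, chr6:47595009-47595038, minus strand: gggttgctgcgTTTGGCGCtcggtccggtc
Uhrf1 E2F, chr17:56304117-56304146, plus strand: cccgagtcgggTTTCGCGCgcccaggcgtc
Dnmt1 E2F, chr9:20952824-20952853, minus strand: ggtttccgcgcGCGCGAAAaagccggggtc
Dnmt1 E2F, chr9:20952574-20952603, minus strand: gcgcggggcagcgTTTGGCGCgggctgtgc
Suz12 E2F, chr11:79992876-79992905, plus strand: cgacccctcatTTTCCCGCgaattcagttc
Kat2a E2F, chr11:100712508-100712537, minus strand: aaggatgggaaGCGGCAAAggaagactacg
Arid1a E2F, chr4:133754022-133754051, minus strand: tccctccctccTTTCCCGCcccctccccct
Eed forkhead, chr7:89981108-89981137, minus strand: tgagaagttccGTAAACActaactcgaagt
Hdac7 forkhead, chr15:97831860-97831889, minus strand: ccctggcttgtGTAAACAtggatgcacgcc
Kdm2b forkhead, chr5:122989125-122989154, minus strand: atcggcaacaaTGTTTACgttccggggatt

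Most of the chromatin modifiers had similar signals in both populations. A signal floor of 61.8 was set at the 90th percentile of 146 probe sets of tissue-restricted genes, and a probe set entered where the mean of its 2 log2 signals reached the floor. Of the 114 probe sets, 83 entered, and they covered 41 genes. Tet3, Ring1 and Hdac9 had probe sets but none that entered. The difference is log2 GFP-positive minus log2 GFP-negative, after signals below the floor were raised to it, so a fold with 1 signal below the floor is a lower bound. A gene is represented by its brightest entered probe set unless another is named.

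By gene, Ezh1 was the member past 1.5-fold on the higher side (1 of 41 genes, 2.44%), compared with 8.86% of all 8846 genes entered. Hdac5, Kdm5b and Arid1a were at least 1.5-fold lower (3 of 41, 7.32%), compared with 8.43% of all genes. With probe sets averaged, 1 gene was past 1.5-fold lower, Hdac5, while Arid1a was at −0.47 log2 and Kdm5b at −0.14. Within 1.5-fold lay 90.2% of the 41 genes and 82.7% of all genes. Lower signals in GFP-positive cells were more frequent than higher ones: 29 of the 41 genes (70.7%) were lower and 12 higher, while 53.4% of all genes were lower. The median difference of the 41 genes was −0.11 log2, and that of all genes −0.03. This excess depended on the probe set that stood for a gene: with all entered probe sets of a gene averaged, 23 of the 41 were lower and 18 higher. After loess normalization, 26 were lower and 15 higher.

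**Figure D1:**
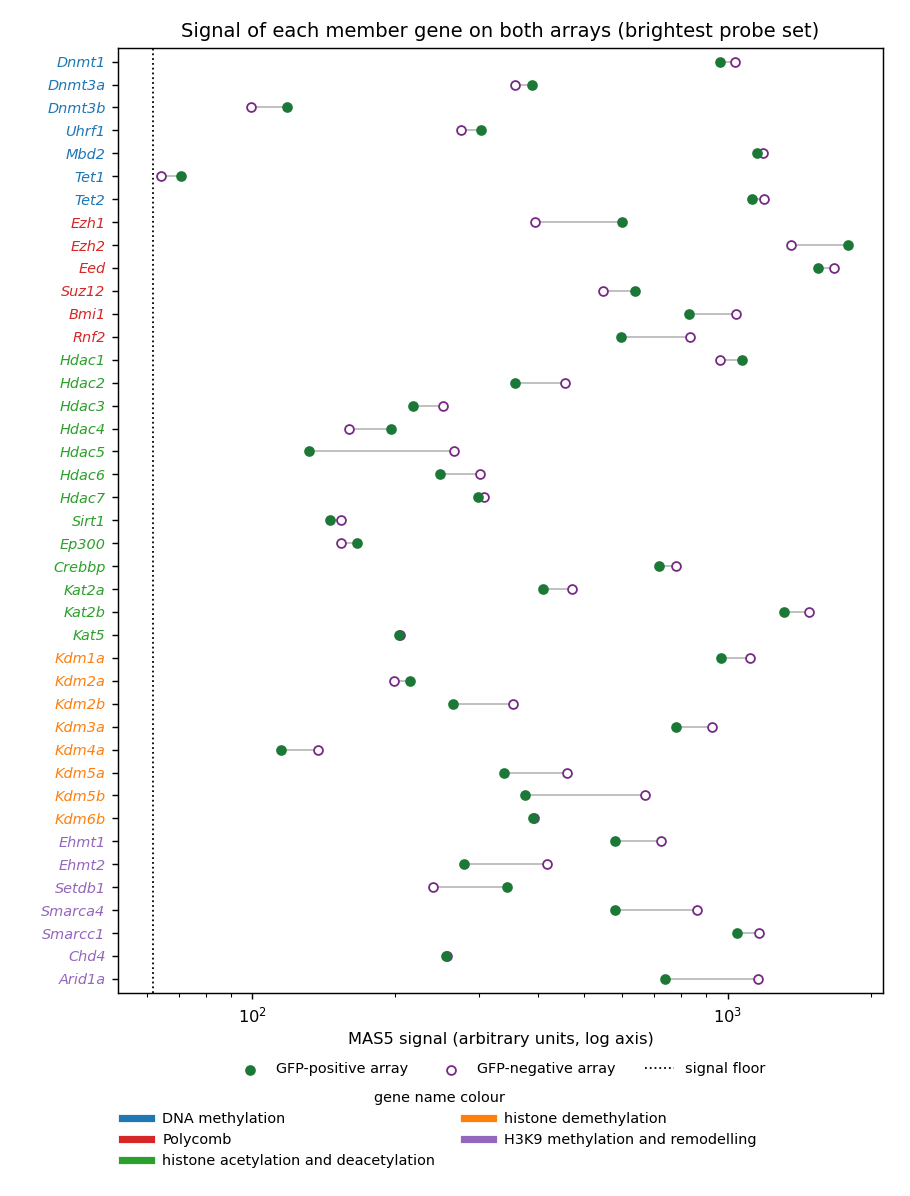
Signal of each of the 41 measured chromatin modifiers on the GFP-positive array (filled green) and the GFP-negative array (open purple), from the brightest probe set of each gene, on a log axis in arbitrary MAS5 units. The dotted line is the signal floor of 61.8, name colours give the functional group, and the widest gap is that of Hdac5, with signals of 132 and 266.

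By probe set, 8 of the 83 were past 1.5-fold toward the GFP-positive array (9.64%) and 7 past it toward the GFP-negative array (8.43%). Over all 14510 probe sets entered, 10.4% were at least that much higher and 9.1% at least that much lower. At least 2-fold higher were 2 of the 83, one each of Kat2a and Kat2b, compared with 2.33% of all. At least 2-fold lower were also 2 of the 83, one each of Hdac5 and Kdm6b, compared with 1.96% of all. The shares of the set are thus near the background at both folds. Of the 8 probe sets past 1.5-fold higher, 5 were bounds (62.5%), since the GFP-negative array read under the floor. Over all probe sets at least 1.5-fold higher, 27.7% were bounds. Of the 7 past 1.5-fold lower, 2 were bounds on the other side (28.6%), compared with 21.2% over all such probe sets. The higher calls of the set thus rested on signals below the floor more often than those of the background. The part of the array-wide background signals given above in these counts was not tested.

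Several probe sets of 1 gene give a measure of how far their differences disagree, and why they disagree could not be looked up. Over 55 probe sets of 23 members with both signals above the floor, the standard deviation of the log2 difference within genes was 0.38, against 0.40 over 8156 probe sets of all 3204 such genes. This scatter says nothing of the spread between mice or sorts. Of 26 members with 2 or more entered probe sets, 9 had all of them on one side of 0 and 17 had them on both sides. Probe sets of 8 members were apart by over 1 log2 unit, namely Dnmt3b, Rnf2, Kat2a, Kat2b, Kdm5a, Kdm5b, Kdm6b and Smarcc1.

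**Figure D2:**
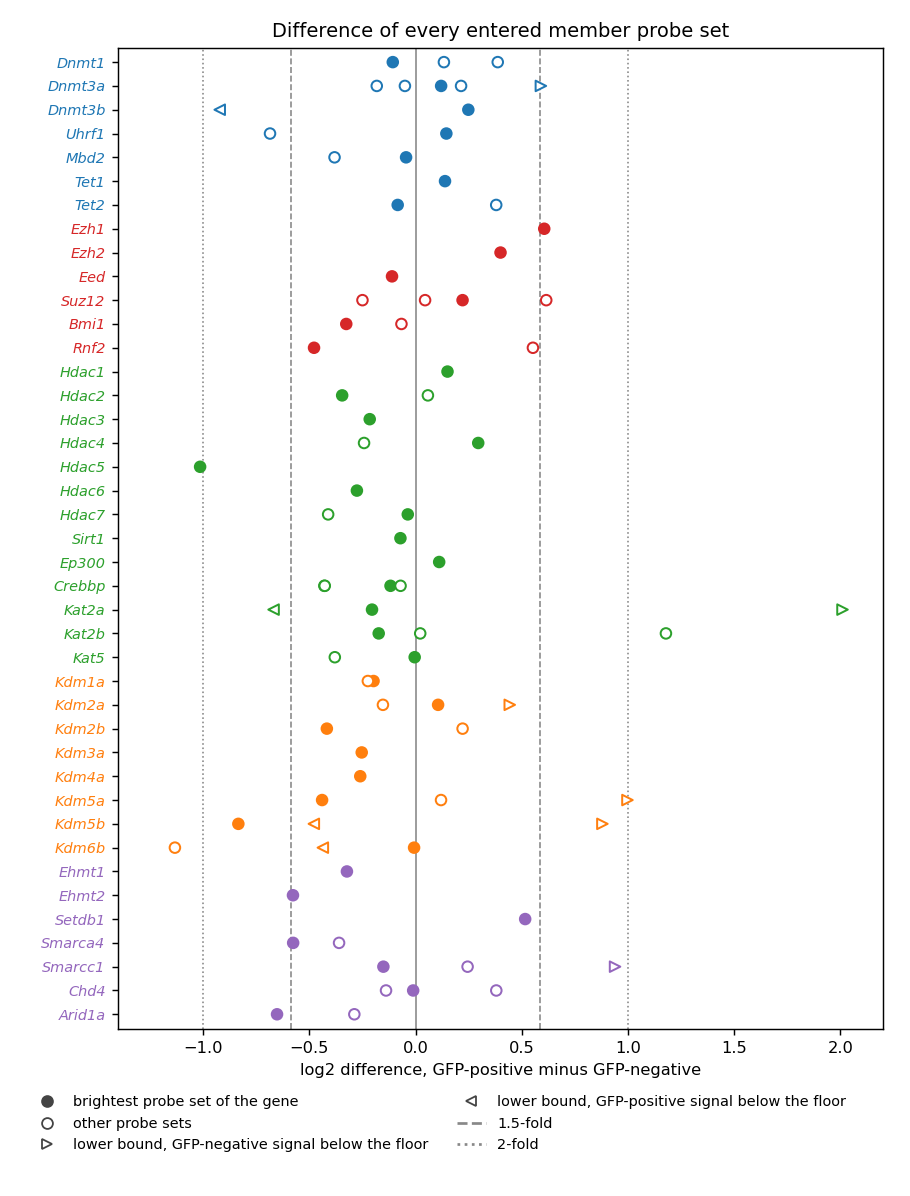
Log2 difference, GFP-positive minus GFP-negative, of all 83 entered probe sets of the 41 genes, with the brightest probe set filled and other probe sets open. Triangles are lower bounds pointing away from the array whose signal was below the floor, dashed and dotted lines mark 1.5-fold and 2-fold, and the highest value is the lower bound of 2.01 log2 for a Kat2a probe set whose brighter companion lies at −0.21.

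By the brightest probe set of each gene, the DNA methylation machinery was nearly level between the populations. Of 7 genes measured, 4 were higher and 3 lower in GFP-positive cells, none by 1.5-fold, with a median of 0.12 log2, which was −0.04 with the floor doubled. Dnmt1, the maintenance methyltransferase, had signals of 963 in GFP-positive cells against 1038 in GFP-negative cells, and its other probe sets gave 426 and 388 and 143 and 109. The 3 probe sets of Dnmt1 therefore lay on both sides of 0, from −0.11 to 0.39 log2. Uhrf1, which brings Dnmt1 to newly copied DNA, had signals of 303 in GFP-positive cells against 274 in GFP-negative cells, with a dimmer probe set at 75.3 and 121 that was 1.61-fold lower.

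The de novo methyltransferases also had probe sets on both sides of 0. For Dnmt3a the brightest of 5 probe sets read 388 in GFP-positive cells against 357 in GFP-negative cells, and 3 of the 5 were higher. The one furthest from 0 had signals of 93.1 in GFP-positive cells against 50.1 in GFP-negative cells, at least 1.51-fold higher. Dnmt3b was close to the floor, with 118 in GFP-positive cells against 99.5 in GFP-negative cells on one probe set. Its other probe set pointed the opposite way, with 55.7 in GFP-positive cells against 117 in GFP-negative cells, at least 1.90-fold lower. The average of both was −0.34 log2.

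Among the readers and erasers, Mbd2, a methyl-CpG binding protein, had signals of 1152 in GFP-positive cells against 1188 in GFP-negative cells and a second probe set at 140 and 182. Tet2, an enzyme that oxidises methylated cytosine, had signals of 1124 in GFP-positive cells against 1191 in GFP-negative cells, with a dimmer probe set at 104 and 79.7. Tet1 was just above the floor with 70.9 in GFP-positive cells against 64.4 in GFP-negative cells, and its 3 other probe sets did not enter. The only probe set of Tet3 read 7.4 in GFP-positive cells against 85.6 in GFP-negative cells and did not enter, since the mean of its log2 signals was below the floor. Other genes of DNA methylation, 10 of 17 listed, had a median of −0.11 log2 with 2 higher and 8 lower. The furthest from 0 were Zbtb33, which encodes the methyl-DNA binding factor Kaiso (171 in GFP-positive cells against 224 in GFP-negative cells), and Mbd1 (484 in GFP-positive cells against 388 in GFP-negative cells), both within 1.5-fold.

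Among Polycomb genes, both catalytic H3K27 methyltransferases, Ezh1 and Ezh2, had higher signals in GFP-positive cells, and Bmi1 of the H2A ubiquitin ligase complex had a lower one. The median of the 6 genes measured was 0.06 log2, with 3 higher and 3 lower, and was −0.25 with probe sets of several possible transcripts left out. Ezh1, the methyltransferase linked to resting cells, had signals of 599 in GFP-positive cells against 393 in GFP-negative cells, which is 1.52-fold higher (0.61 log2). Its 3 other probe sets did not enter, with signals of at most 62.9, and with probe sets of several possible transcripts left out Ezh1 had no value. Ezh2, the methyltransferase of dividing cells, had 1792 in GFP-positive cells against 1358 in GFP-negative cells, which is 1.32-fold higher on its only probe set.

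The shared core subunits of the methyltransferase complex differed less. Suz12 had signals of 638 in GFP-positive cells against 547 in GFP-negative cells on its brightest probe set, and its 4 entered probe sets ranged from −0.25 to 0.62 log2. Eed, which reads the H3K27 mark, had 1553 in GFP-positive cells against 1677 in GFP-negative cells. In the other Polycomb complex, Bmi1 had 829.6 in GFP-positive cells against 1040.2 in GFP-negative cells, 1.25-fold lower, with a dimmer probe set at 89.0 and 93.2. Rnf2, the ubiquitin ligase of that complex, had 597 in GFP-positive cells against 832 in GFP-negative cells, 1.39-fold lower. The second probe set of Rnf2 went the other way, at 163 in GFP-positive cells against 111 in GFP-negative cells, or 1.47-fold higher, and the average of both was 0.04 log2. Ring1, its paralogue, was below the floor on both arrays (4.5 and 48.3).

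Of 28 further Polycomb genes listed, 20 were measured, 11 higher and 9 lower, with a median of 0.03 log2. Phc1, a structural subunit of the ubiquitin ligase complex, had signals of 233 in GFP-positive cells against 90.8 in GFP-negative cells, 2.57-fold higher. Pcgf3, a subunit of a variant of the same complex, had 77.2 in GFP-positive cells against 154.5 in GFP-negative cells, just past 2-fold lower. Each rests on a single entered probe set.

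Cycling cells are known to hold more Ezh2, Dnmt1 and Uhrf1 messenger RNA, and the E2F letters shown above lie in the promoters of all 3. Of 28 cycling-cell markers listed, 27 entered, 16 higher and 11 lower, with a median of 0.14 log2. Their summed signals were 52703 in GFP-positive cells against 48396 in GFP-negative cells. Top2a, a topoisomerase of dividing cells, had 2747 in GFP-positive cells against 2022 in GFP-negative cells. The 2 markers past 1.5-fold were lower: Mcm2, a subunit of the replicative helicase, had 290 in GFP-positive cells against 475 in GFP-negative cells, and the replication licensing gene Cdc6 had 94.5 and 146. The other entered probe set of Mcm2 was higher, at 0.18 log2. Among remodellers, Hells, which assists DNA methylation in dividing cells, had 198 in GFP-positive cells against 103 in GFP-negative cells, 1.92-fold higher, with a second probe set at 0.16 log2. Measured members with E2F letters went both ways on their brightest probe sets. Ezh2 (0.40), Suz12 (0.22) and Uhrf1 (0.145 log2) were higher, while Dnmt1 (−0.11), Kat2a (−0.21) and Arid1a (−0.65 log2) were lower. For Suz12, Uhrf1, Dnmt1 and Kat2a, other probe sets lay on the opposite side of 0. The part of cell division in the differences of Ezh2, Dnmt1, Uhrf1 and Hells was not tested.

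Among histone deacetylases, Hdac5 stood out with a lower signal in GFP-positive cells. The 13 measured genes of histone acetylation and deacetylation had a median of −0.12 log2, with 3 higher and 10 lower (76.9%). Of all genes entered, 53.4% were lower. The 10 include Kat2a and Kat2b, whose probe sets disagreed. Hdac5, a class IIa deacetylase that moves between nucleus and cytoplasm on calcium signals, had signals of 132 in GFP-positive cells against 266 in GFP-negative cells. This 2.02-fold lower signal, or −1.01 log2, came from the only probe set of the gene and was the largest difference among the 41 genes.

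The other class IIa members were within 1.5-fold. Hdac4 had 196 in GFP-positive cells against 159.5 in GFP-negative cells, with a second probe set at 97.2 and 115. One more probe set of Hdac4 did not enter, at 103 in GFP-positive cells against 23.8 in GFP-negative cells. Hdac7, a class IIa enzyme abundant in lymphocytes, had 299 in GFP-positive cells against 307 in GFP-negative cells, and 64.8 and 86.2 on its dimmer probe set. Hdac9, whose loss in mice increases regulatory T cell function, had no probe set that entered (18.0 in GFP-positive cells against 65.0 in GFP-negative cells on one, 50.2 and 21.7 on the other). Signals of Hdac9 were thus below or near the floor on both arrays.

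Class I deacetylases, the catalytic parts of corepressor complexes, were within 1.5-fold. Hdac1 had 1071 in GFP-positive cells against 965 in GFP-negative cells. Hdac2 had 358 in GFP-positive cells against 455 in GFP-negative cells, 1.27-fold lower, but 144 and 139 on a dimmer probe set. Hdac3 had 217 in GFP-positive cells against 252.5 in GFP-negative cells, 1.16-fold lower. Hdac6, a cytoplasmic deacetylase that removes acetyl groups from tubulin and Foxp3, had 249 in GFP-positive cells against 301 in GFP-negative cells, 1.21-fold lower. Sirt1, an NAD-dependent deacetylase that also acts on Foxp3, had 146 in GFP-positive cells against 153 in GFP-negative cells.

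Among acetyltransferases, Ep300 had signals of 166 in GFP-positive cells against 153.5 in GFP-negative cells, while its paralogue Crebbp had 717 and 778. All 4 probe sets of Crebbp were lower in GFP-positive cells, at −0.43 to −0.07 log2. Kat5, which encodes Tip60, was level at 204 in GFP-positive cells against 205 in GFP-negative cells, with a dimmer probe set at 62.0 and 80.7.

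Probe sets of the paralogues Kat2a and Kat2b, catalytic subunits of the SAGA coactivator complex, disagreed. The brightest of Kat2a read 408 in GFP-positive cells against 471 in GFP-negative cells. Another read 249 in GFP-positive cells against 46.0 in GFP-negative cells, at least 4.03-fold higher, and one more 61.5 and 98.3, at least 1.59-fold lower. Kat2b had 1313 in GFP-positive cells against 1481 in GFP-negative cells on its brightest probe set, 159.0 and 157 on another, and 206 and 90.8 on one more, which was 2.26-fold higher. No direction is therefore given for either gene.

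Of 37 further genes of acetylation and deacetylation listed, 29 were measured, 11 higher and 18 lower, with a median of −0.11 log2. Tada2a, an adaptor of Kat2a and Kat2b, had 71.1 in GFP-positive cells against 130.1 in GFP-negative cells, 1.83-fold lower. Supt3, a SAGA subunit, had 156 in GFP-positive cells against 88.2 in GFP-negative cells, 1.77-fold higher. Both rest on 1 entered probe set, and the GFP-positive signal of Tada2a was near the floor.

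Signals of 7 of the 8 histone demethylase genes were lower on the GFP-positive array (87.5%), and the group median was −0.26 log2. Of all genes entered, 53.4% were lower. Kdm6b counts among the 7 at −0.007 log2. With probe sets averaged, Kdm5a was at 0.23, Kdm6b at −0.53 and the group median at −0.18 log2. Kdm5b, an H3K4 demethylase, had signals of 376 in GFP-positive cells against 670.0 in GFP-negative cells, 1.78-fold lower. A dimmer probe set of Kdm5b was also lower (54.7 in GFP-positive cells against 86.2 in GFP-negative cells), and another was higher (114 and 47.8, at least 1.84-fold). When all 3 were averaged, the difference of Kdm5b was −0.14 log2. Its paralogue Kdm5a had 338 in GFP-positive cells against 459 in GFP-negative cells, 1.36-fold lower. Its other entered probe sets went the other way, one with 123.5 in GFP-positive cells against 53.6 in GFP-negative cells, a lower bound just under 2-fold, and one at 0.12 log2.

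Kdm6b, which removes the H3K27 mark laid down by Ezh2, had 390.4 in GFP-positive cells against 392 in GFP-negative cells on its brightest probe set. A second probe set read 237 in GFP-positive cells against 519.7 in GFP-negative cells, 2.19-fold lower, and one more 58.1 and 83.7, at least 1.35-fold lower. The brightest of these can match several transcripts, per its name, and without it the difference of Kdm6b was −1.13 log2. The brightest probe set itself turned to 0.04 log2 after loess normalization and was also above 0 after quantile normalization. Before such normalization none of the 3 was higher in GFP-positive cells.

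Kdm1a, Kdm3a and Kdm4a were lower, all within 1.5-fold. Kdm1a, the H3K4 demethylase LSD1, had 971 in GFP-positive cells against 1114 in GFP-negative cells, and 513 and 599.7 on its other probe set, 1.15-fold and 1.17-fold lower. Kdm3a, an H3K9 demethylase, had 778.5 in GFP-positive cells against 928 in GFP-negative cells, 1.19-fold lower. Kdm4a, which acts on H3K9 and H3K36, had 115 in GFP-positive cells against 137 in GFP-negative cells, 1.20-fold lower.

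The H3K36 demethylases Kdm2a and Kdm2b each had probe sets on both sides of 0. Kdm2b had 265 in GFP-positive cells against 354 in GFP-negative cells on one probe set and 239.6 and 205.5 on the other. Kdm2a, the member that was not lower, had 214 in GFP-positive cells against 199 in GFP-negative cells on its brightest probe set. Of 16 further demethylase and related hydroxylase genes, 14 were measured, 8 higher and 6 lower, with a median of 0.09 log2. Phf8, an H3K9 demethylase, had 250.5 in GFP-positive cells against 141 in GFP-negative cells, 1.78-fold higher, and Hif1an, an asparagine hydroxylase, had 220.0 and 339, 1.54-fold lower.

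H3K9 methyltransferases and remodellers gave the lowest group median, −0.32 log2, with 6 of 7 genes lower in GFP-positive cells (85.7%). Of all genes entered, 53.4% were lower. Chd4 counts among the 6 at −0.01 log2. With probe sets averaged, Chd4 was at 0.08 and Smarcc1 at 0.34 log2, while the group median stayed at −0.32. Arid1a, the DNA-binding subunit of the BAF remodelling complex, had signals of 739 in GFP-positive cells against 1161 in GFP-negative cells, 1.57-fold lower. Its second probe set had 97.6 in GFP-positive cells against 119 in GFP-negative cells, 1.22-fold lower, and the average of both was −0.47 log2. Smarca4, which encodes Brg1, the ATPase of the same complex, had 579 in GFP-positive cells against 864 in GFP-negative cells, 1.49-fold lower, and 257 and 330.3 on its second probe set. Both genes were thus lower on each of their probe sets. Smarcc1, a scaffold subunit of the complex, was near level at 1048 in GFP-positive cells against 1164 in GFP-negative cells, with dimmer probe sets at 116 and 97.8 and at 119 and 39.8.

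The H3K9 methyltransferases Ehmt1 and Ehmt2, which work as a heterodimer, were lower together. Ehmt1 had 580.0 in GFP-positive cells against 726 in GFP-negative cells, 1.25-fold lower, and Ehmt2 had 279 and 417, 1.49-fold lower, each from 1 entered probe set. Setdb1, another methyltransferase of that residue, went the other way with 343 in GFP-positive cells against 239.9 in GFP-negative cells, 1.43-fold higher. Chd4, the ATPase of the NuRD complex, was level at 255 in GFP-positive cells against 257 in GFP-negative cells, with other probe sets at 268 and 206 and at 101 and 111.

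Of 35 further histone methylation genes listed, 30 were measured, 14 higher and 16 lower, with a median of −0.08 log2. Ash2l, a core subunit of H3K4 methyltransferase complexes, had 143 in GFP-positive cells against 294 in GFP-negative cells, 2.05-fold lower, although its second probe set was at 0.11 log2. Smyd3, a lysine methyltransferase, had 160.3 in GFP-positive cells against 93.7 in GFP-negative cells, 1.71-fold higher. Of 45 further remodelling genes, 39 were measured, 11 higher and 28 lower, with a median of −0.15 log2. Arid1b, the paralogue of Arid1a, had 61.8 in GFP-positive cells against 133 in GFP-negative cells, at least 2.15-fold lower from 1 probe set. Over the 142 related genes of all 6 lists, 57 were higher and 85 lower, 8 of them (5.63%) at least 1.5-fold higher and 14 (9.86%) at least 1.5-fold lower. The shares over all genes were the 8.86% and 8.43% given above.

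T cell markers were also lower more often than higher. Of 12 listed, 10 were measured, of which 1 was higher and 9 lower, with a median of −0.24 log2 and summed signals of 18614 in GFP-positive cells against 21599 in GFP-negative cells. B cell markers had summed signals of 2518 in GFP-positive cells against 4814 in GFP-negative cells over 14 genes. Of these 14, 11 did not enter, among them Cd79a, Ms4a1 and Pax5, while Cd22 was lower and Cd79b higher. Most of the sum came from Ighm, with 1881 in GFP-positive cells against 4139 in GFP-negative cells on its brightest probe set, but its 7 entered probe sets ranged from −1.23 to 0.62 log2. Of the 9 entered B cell probe sets, 5 were higher and 4 lower. Summed signals were 547 in GFP-positive cells against 569 in GFP-negative cells for myeloid and dendritic cell markers (2 of 17 genes entered), and 1670.2 against 1303 for CD8 T and NK cell markers (3 of 11 entered). The part of other cells or of the T cell marker difference in the lower signals of Smarca4, Arid1a, Ehmt2 and the demethylases was not tested.

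**Figure D3:**
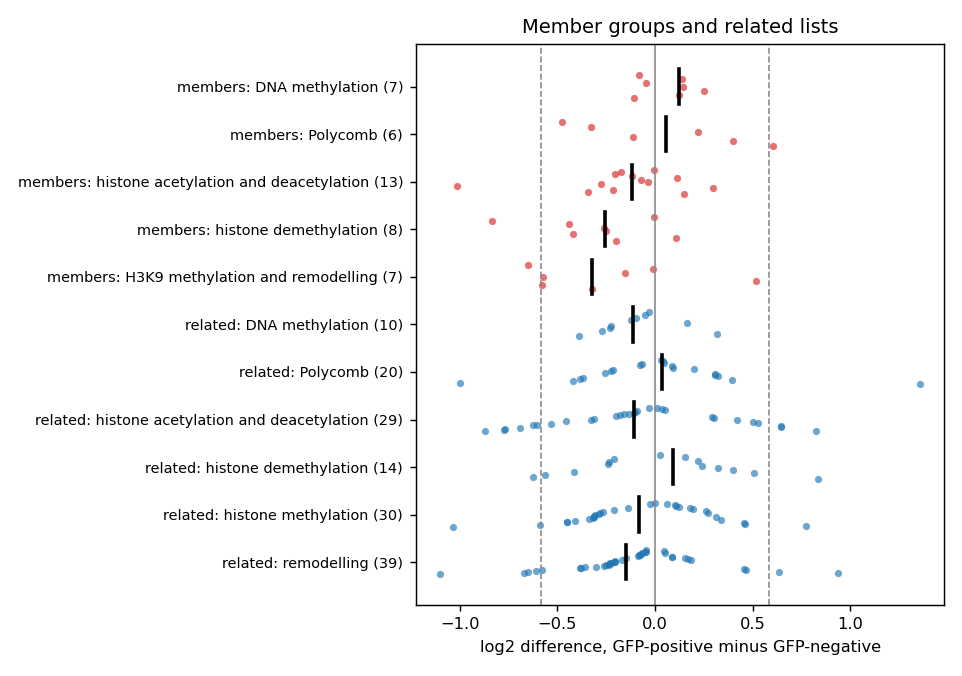
Log2 difference of each measured gene in the 5 member groups (red) and in the 6 lists of related chromatin genes (blue), GFP-positive minus GFP-negative, with the number of genes in brackets; bars are medians, dashed lines mark 1.5-fold, and vertical offsets only separate the points. Group medians run from 0.12 for DNA methylation to −0.32 for H3K9 methylation and remodelling.

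Paralogues were compared side by side, since they can share substrates. Of 18 listed pairs, 12 had both genes measured, 6 with differences in the same direction and 6 in opposite directions. This split rests on the brightest probe set of each gene. The pairs in the same direction include Kat2a and Kat2b, for which no direction is given above. Hdac4 and Hdac5 were furthest apart, at 0.30 and −1.01 log2, and were the only one of the 12 pairs apart by over 1 log2 unit. Hdac5 and Hdac7 followed at −1.01 and −0.04. Ezh1 and Ezh2 were both higher (0.61 and 0.40), Kdm5a and Kdm5b both lower (−0.44 and −0.83), and Ehmt1 and Ehmt2 both lower (−0.32 and −0.58). With probe sets averaged, Kdm5a was at 0.23 and Kdm5b at −0.14 log2, so that pair then went opposite ways. For Hdac1 and Hdac2 (0.15 and −0.35) and for Kdm2a and Kdm2b (0.11 and −0.42) the gap was 0.50 and 0.52 log2. The within-gene scatter of 0.40 given above is that of single probe sets, whereas a gap holds the scatter of 2 genes.

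**Figure D4:**
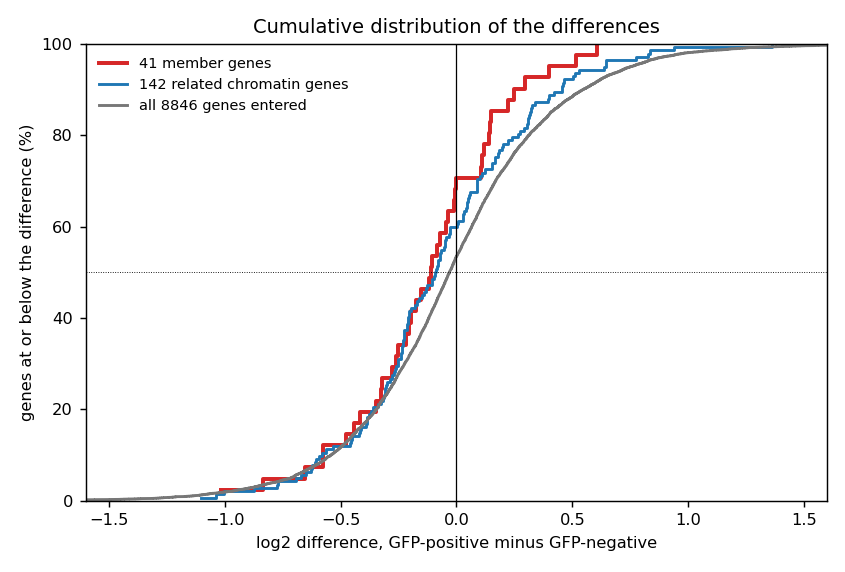
Cumulative share of genes (%) against the log2 difference, GFP-positive minus GFP-negative, for 41 chromatin modifiers (red), 142 related chromatin genes (blue) and all 8846 genes entered (grey). The red curve reaches 70.7% at 0, against 53.4% for all genes, and ends at 0.61.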

How the data were processed

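Affymetrix arrays, 1 per group, were placed in their groups by their titles. The deposited values are linear intensities, which the submitters' processing notes credit to MAS5. Its version, its settings and any detection calls were not given in the sources used here. A 2% trimmed mean was 150.0 on both arrays, so no further scaling was applied. Symbols came from the platform annotation: 34945 probe sets had 1 symbol, 932 several and 9211 none, and 34754 matched the RefSeq gene table by identifier, which changed 0 symbols. The floor rests on 94 of 102 listed tissue-restricted genes, and 10 of their 146 probe sets entered.

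Computed here, with Python 3.11.15, numpy 2.4.6, pandas 2.3.3 and statsmodels 0.14.6, were floored log2 differences and counts past 1.5-fold and 2-fold; the steps were tested on simulated data. The H3K9 methyltransferases were grouped with the remodellers. Named were all members, related genes past 2-fold and the 2 per list furthest from 0; other genes were named after their values were seen. The members, lists and rules were chosen with earlier results of these data known. Alternatives were the floor, the filter, quantile and loess normalization (span 0.3), probe sets named _s_at, _x_at or _a_at left out, and averaging of probe sets.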

Additional observations from a re-analysis of the deposited data

How the results depend on the processing

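No paired analysis was possible because each group has 1 array. A value is called moved when a count changed by over 1.5 times or a log2 difference by over the within-gene scatter of 0.40. Among the 5 group medians none moved by that much over 8 alternatives, and those of histone acetylation and deacetylation (−0.15 to −0.05), histone demethylation (−0.26 to −0.18) and H3K9 methylation and remodelling (−0.45 to −0.27) stayed below 0 in all 8. Those of DNA methylation (−0.04 to 0.14) and Polycomb (−0.25 to 0.11) crossed 0. All 5 medians as reported were smaller in size than 0.40, so a median could change sign without being called moved. With the floor doubled, 0 probe sets were at least 2-fold higher, 3 at least 1.5-fold higher and 4 at least 1.5-fold lower; with no floor and no filter, 12 were at least 2-fold and 22 at least 1.5-fold higher, and 14 and 19 lower by those folds. With both signals required to reach the floor, 1 was at least 2-fold and 3 at least 1.5-fold higher. The count of genes at least 1.5-fold lower was 6 with no floor and 1 (Hdac5) with probe sets averaged. Of 320 values of single genes under an alternative, 13 moved by more than the scatter, and 10 of these changed sign: Dnmt3b, Uhrf1, Rnf2, Kat2a, Kat2b, Kdm5a and Smarcc1 with probe sets averaged, and Suz12, Hdac2 and Kdm5a with probe sets of several possible transcripts left out. In all, 22 values changed sign, none of Ezh1, Hdac5, Kdm5b or Arid1a. The floor and filter settings leave a brightest probe set's value as it is unless a signal lies near the floor, so 161 of their 162 values were equal to those reported. Hdac5 ranged from −1.04 to −1.01, and Ezh1 from 0.61 to 0.66 where it had a value. Each has 1 entered probe set, so averaging could not change it. Only quantile and loess normalization changed these values, so the narrow ranges are no replicate check. With probe sets of several possible transcripts left out, Ezh1 had none and the 1 gene past 1.5-fold higher was Kdm5a, which was at −0.44 with its brightest probe set. Low signals limit Tet1, Tet3, Dnmt3b, Ring1 and Hdac9.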

Other observations

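Beyond the genes named above, other catalytic and scaffold genes of chromatin complexes passed 1.5-fold; they were picked out after their values were seen, from the lists of related genes. The acetyltransferase genes Kat8 (152 in GFP-positive cells against 259.7 in GFP-negative cells, 1.71-fold), Kat6a (343 and 522, 1.52-fold) and the coactivator gene Ncoa1 (259.6 and 419, 1.61-fold) were lower in GFP-positive cells. Both entered probe sets of Kat6a and of Ncoa1 were lower. Rcor1, the partner of Kdm1a in the CoREST corepressor, had 250.2 in GFP-positive cells against 426 in GFP-negative cells, 1.70-fold lower, but its 3 probe sets ranged from −0.77 to 0.33 log2. Setd2, an H3K36 methyltransferase, had 293 in GFP-positive cells against 442 in GFP-negative cells, 1.51-fold lower.

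In the BAF complex, Smarca2, the alternative ATPase to Smarca4, had 266 in GFP-positive cells against 417 in GFP-negative cells, 1.57-fold lower, and both its probe sets were lower. Smarcb1 (318 in GFP-positive cells against 409 in GFP-negative cells) and Dpf2 (295 and 363.5) were lower by under 1.5-fold, although a second probe set of Smarcb1 was at 0.16 log2. Smarce1 was near level (2156 in GFP-positive cells against 2276 in GFP-negative cells), as was Smarcd2 (1863 and 1797) on its brightest probe set, with another at −0.55 log2. Smarcc2, the paralogue of Smarcc1, went the other way with 221 in GFP-positive cells against 142 in GFP-negative cells, 1.55-fold higher from 1 probe set.

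The deacetylase genes Hdac10 (134 in GFP-positive cells against 85.8 in GFP-negative cells, 1.57-fold) and Sirt4 (96.6 and 51.2, at least 1.56-fold) were higher in GFP-positive cells, opposite to Sirt2 (345 and 533, 1.54-fold lower). Each rests on 1 entered probe set, and with 1 array per group none of these differences has a replicate check.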
